A study of Mus musculus with 18 samples.

Results

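Short-term and long-term haematopoietic stem cells (ST and LT cells) of mice given tamoxifen were compared across the 14419 genes of the deposited table, to ask which population differences remain in treated cells. The comparison holds the 3 ST and the 3 LT libraries labelled with tamoxifen, chosen by their labels alone, out of 18 libraries in all. The donors were male C57BL/6 mice, adult, dosed for 2 weeks with tamoxifen, which blocks or activates estrogen receptors depending on the tissue, or with corn oil as vehicle, and bone marrow cells were isolated fresh. The 3 LT and 3 ST libraries of the oil groups allow the same comparison without the drug. The 6 libraries of multipotent progenitors, taken after 1 week of oil or tamoxifen, entered only the estimate of the spread. The submitters call the 3 libraries of a group biological replicates. The sources used here give neither the sort gates nor whether a library came from 1 mouse or from several.

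Long-term stem cells are mostly quiescent and can rebuild the blood system for life, whereas short-term stem cells divide more often and sustain blood formation for a limited time. LT cells carry the receptor CD150, encoded by Slamf1, while CD34, CD48 and Flt3 appear as cells leave that state, and Kit and Sca-1 (Ly6a) mark both. Granule enzymes such as myeloperoxidase and neutrophil elastase are made by granulocyte progenitors, and membrane skeleton proteins such as ankyrin and spectrin by erythroid ones. Stem cells can carry low levels of either programme before they commit to a lineage.

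Values are normalised CPM, the reads of a gene plus 0.5, times 1 constant per library, with sums over genes of 900541 to 1149321 in the LT and ST libraries. The values of a group stand in the order of its libraries A, B and C. Differences, given in parentheses after the levels, are ST minus LT on log2(normalised CPM + 1), with the standard error (SE) of the fit, and understate the change of low genes. They were tested with limma, with Benjamini-Hochberg adjustment over all genes and a threshold of 0.05. Reads in listed genes numbered 3203195 to 3857229 in the LT tamoxifen libraries and 3611749 to 3982982 in the ST tamoxifen libraries, so that 1 read was worth 0.257 to 0.301. The first principal component of the 12 LT and ST libraries held 37.6% of the variance and parted the populations with both treatments. On the third, with 12.2%, LT tamoxifen library A stood apart at 57, against 21.8 for the next library. Mitochondrial ribosomal RNA took 25.45% of its reads, against 17.71% and 18.68% in LT tamoxifen libraries B and C and 19.29% to 24.39% in ST tamoxifen. The labels do not say which libraries were prepared together. In such bulk samples, fewer cells of a type and less RNA per cell cannot be told apart.

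The surface genes by which these cells are usually sorted came first as a check of the labels. Cd48, a SLAM family receptor of later progenitors, measured 5.21, 8.42 and 5.56 in LT and 61.8, 73.3 and 64.8 in ST with tamoxifen (3.22, SE 0.23, adjusted p = 1.34e-10). Cd34, a sialomucin gained on leaving the LT state, measured 54.3, 119 and 77.7 in LT and 268, 351 and 265 in ST (1.86, SE 0.24, adjusted p = 3.45e-05). For both genes every ST library lay above every LT library. Groups without overlap, in either direction, were seen in 33.5% of all genes. Among genes past the threshold with tamoxifen the share was 92.3%, which applies wherever a lack of overlap is stated below. Flt3, a receptor of lympho-myeloid progenitors, measured 25.4, 58.9 and 22.4 in LT and 68.7, 88.4 and 52.0 in ST. Its groups overlapped and it did not pass (1.05, SE 0.38, adjusted p = 0.0638). It passed with the replicate letter as a block (adjusted p = 1.38e-06), without LT tamoxifen library B (0.00657), without LT oil library B or C (0.0448 and 0.0468) and without trend and robust settings (0.0486).

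On the LT side, Slamf1 measured 44.2, 34.4 and 54.0 in LT and 30.7, 20.7 and 32.7 in ST (-0.64, SE 0.35, adjusted p = 0.19). Procr, the protein C receptor used to enrich LT cells, measured 24.2, 42.9 and 32.3 in LT and 21.9, 16.1 and 21.4 in ST (-0.69, SE 0.39, adjusted p = 0.218). The 3 LT libraries lay above the 3 ST libraries in both genes, yet neither passed. Kit, the receptor of stem cell factor, was abundant in both populations and lower in ST, at 759, 782 and 682 in LT and 573, 592 and 532 in ST (-0.39, SE 0.11, adjusted p = 0.0104). The Kit call was lost without ST tamoxifen library C (adjusted p = 0.0558) and when the 6 libraries were fitted alone (0.13). Ly6a did not pass, at 47.7, 82.3 and 49.5 in LT and 74.5, 79.9 and 63.6 in ST (adjusted p = 0.393). Of 16 surface genes of such gates, 6 were higher in ST, namely Cd48, Fcgr3, Cd244, Cd34, Thy1 and Itga2b, and Kit alone was lower. Esr1, the gene of estrogen receptor alpha, measured 20.4, 28.7 and 19.7 in LT and 24.6, 21.0 and 7.58 in ST and did not pass (-0.48, SE 0.28, adjusted p = 0.234). Without ST tamoxifen library C the Esr1 difference was 0.008.

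Across all genes, 3391 differed between ST and LT cells with tamoxifen, which is 23.5% of those tested. Of these, 1796 (12.5% of all genes) were higher in ST and 1595 (11.1%) lower, and 1052 differed more than 2-fold in normalised CPM + 1. On that scale the largest differences lay on the ST side, with 31 genes more than 8-fold higher in ST and 0 more than 8-fold lower. The added 1 makes these folds smaller than the ratios of the levels. Atp7b, for example, had means of 54.9 in LT and 6.70 in ST and is not counted among genes more than 8-fold lower. Scaling the libraries to equal medians moved the median gene's difference to -0.10 and the split to 1383 higher and 2040 lower. A fit of the 6 compared libraries alone left 1780 genes, 985 higher and 795 lower. Calls also fell to 2723 without LT tamoxifen library A and to 2455 without ST tamoxifen library C.

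With oil, 4104 genes (28.5%) differed between the populations, 1802 of them (12.5%) higher in ST and 2302 (16.0%) lower. The oil and tamoxifen comparisons share no library. A total of 2139 genes (14.8% of all genes) passed with both treatments in the same direction, which is 63.1% of the tamoxifen calls and 52.1% of the oil calls. Those higher in ST, 1018 genes, were 56.7% of the tamoxifen calls and 56.5% of the oil calls in that direction. Those lower in ST, 1121 genes, were 70.3% of the tamoxifen calls and 48.7% of the oil calls. In the genes called with both and higher in ST the median difference was 0.88 with tamoxifen and 0.94 with oil, and in those lower in ST it was -0.73 and -0.82. Passing with both selects like sizes. Genes called higher with oil had medians of 0.91 with oil and 0.66 with tamoxifen, and those called lower -0.76 and -0.49. Genes called higher with tamoxifen had medians of 0.82 with tamoxifen and 0.65 with oil, and those called lower -0.75 and -0.68. Each of these sets favours the treatment it was called in. Opposite signs past both thresholds were seen in 11 genes. Among them was Trim24, a transcription cofactor, with means of 114 in LT and 157 in ST with oil and 125 in LT and 93.0 in ST with tamoxifen. Fgd4, an exchange factor for CDC42, had means of 236 in LT and 328 in ST with oil and 256 in LT and 185 in ST with tamoxifen. Both were chosen after their values were seen. The change in their population difference did not pass by limma (adjusted p = 0.0697 for Trim24 and 0.0849 for Fgd4). Gm10060, also among the 11, passed that test (adjusted p = 0.0389).

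Passing with one treatment alone does not show a difference between treatments. Of the 1954 genes called with oil and not with tamoxifen, 1644 (84.1%) kept their sign with tamoxifen, against 70.7% of all genes with 1 sign in both. The difference between the population differences itself passed for 3 of them. Of the 1241 genes called with tamoxifen and not with oil, 1001 (80.7%) had the same sign with oil, and that difference passed for 2. Over all genes it passed for 8 (0.0555%), and 1860 had an unadjusted p under 0.05. Its median 95% interval, before adjustment over genes, reached 0.73 to either side on the log2 scale. Smaller changes in a population difference were thus mostly not detectable, and far larger ones could miss the threshold. Flrt1, for example, changed by -2.67 and did not pass by limma (adjusted p = 0.165). Aldh1a1, a retinaldehyde dehydrogenase chosen after its values were seen, passed with oil alone. It had means of 66.0 in LT and 13.9 in ST with oil (-2.21, SE 0.29, adjusted p = 1.95e-06) and of 75.7 in LT and 45.6 in ST with tamoxifen (-0.74, SE 0.29, adjusted p = 0.0599), and the difference between them did not pass (adjusted p = 0.115).

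**Figure D1:**
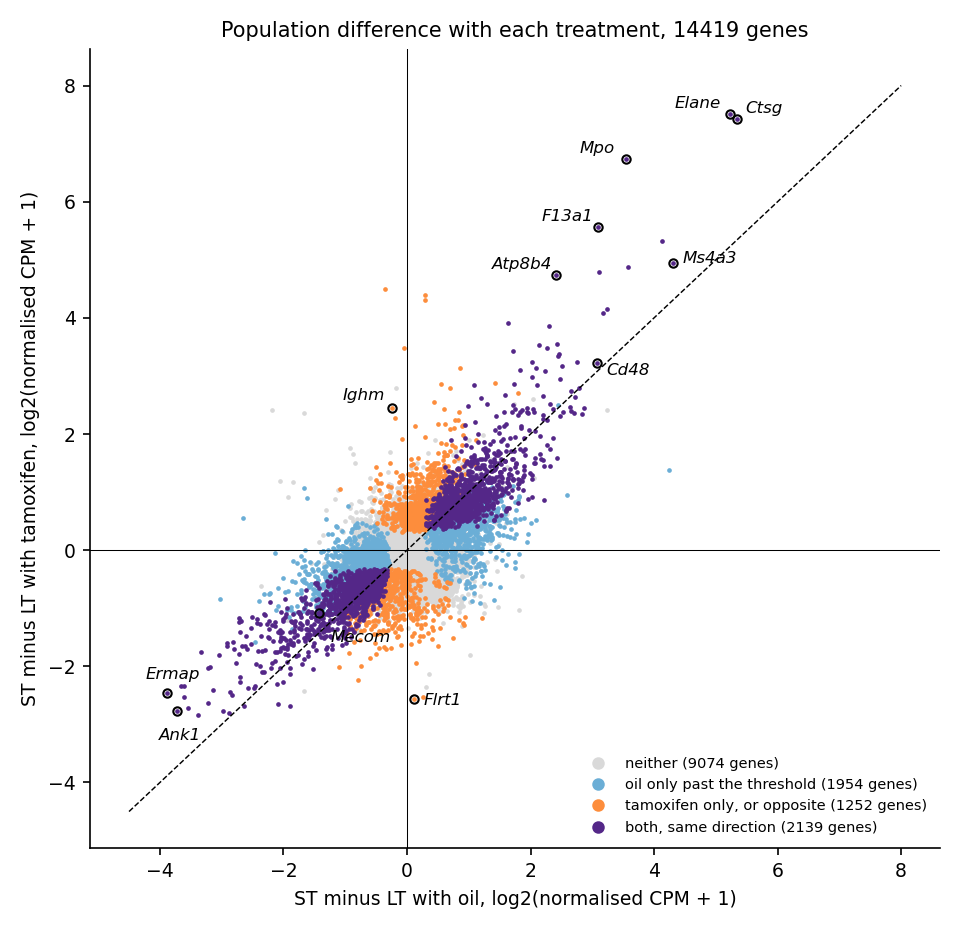
ST minus LT difference of each of 14419 genes on log2(normalised CPM + 1), with oil on the horizontal and with tamoxifen on the vertical axis, coloured by the treatments in which the gene passed the threshold (dashed line: equal differences). Among the 2139 genes past the threshold with both treatments in the same direction, Elane, Ctsg and Mpo lie at the top and above the dashed line. Flrt1 lies near 0 with oil and at -2.56 with tamoxifen.

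Many of the genes with the largest excess in ST cells encode proteins of granulocyte and monocyte progenitors. Elane (ENSMUSG00000020125), neutrophil elastase, measured 0.744, 0.143 and 3.16 in LT and 370.2, 326 and 415 in ST with tamoxifen (7.51, SE 0.58, adjusted p = 2.8e-06). Ctsg (ENSMUSG00000040314), the granule protease cathepsin G, measured 0.149, 0.713 and 0.150 in LT and 249, 196 and 235 in ST (7.43, SE 0.54, adjusted p = 8.55e-07). Mpo (ENSMUSG00000009350), myeloperoxidase, measured 18, 25.5 and 15.8 in LT and 2008, 2131 and 2393 in ST (6.74, SE 0.41, adjusted p = 4.45e-07). The groups were far apart in these 3 genes, and the naming rule requires that they do not overlap. LT libraries were near the level of single reads for Ctsg and Elane, which exceeded the rule's mean of 20.3 only through ST. Over the 3 libraries Ctsg had 2 reads in LT and 2535 in ST, a ratio of 1160 with an exact 95% interval of 320 to 9570, which covers counting error only. Prtn3, proteinase 3, measured 5.21, 32.1 and 16.1 in LT and 111, 138 and 153 in ST (3.14, SE 0.48, adjusted p = 0.00051).

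The promoters of these 4 genes are shown because they are among those with the largest ST excess, and those of Ermap and Klf1 because they belong to the red cell genes on the LT side. Each is the 250 bases before the RefSeq gene start in build GRCm38.p6, 5′ to 3′ on the gene's strand (the deposited values were made on NCBIM37, and no coordinate of that build is used). Capitals mark matches on either strand to 4 motifs, none of which overlap here. GAGGAA is a core of PU.1 sites. TGTGGT is a core known from RUNX factors, TTGCNNAA a form of the site of C/EBP proteins, and AGATAA a form of the site of GATA factors.
Mpo, chr11:87793534-87793783, plus strand: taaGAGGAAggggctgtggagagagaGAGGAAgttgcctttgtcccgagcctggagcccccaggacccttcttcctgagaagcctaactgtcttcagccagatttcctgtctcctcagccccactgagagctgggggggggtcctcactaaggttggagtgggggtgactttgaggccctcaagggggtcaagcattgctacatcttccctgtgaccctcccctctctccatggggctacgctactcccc
Elane, chr10:79886062-79886311, plus strand: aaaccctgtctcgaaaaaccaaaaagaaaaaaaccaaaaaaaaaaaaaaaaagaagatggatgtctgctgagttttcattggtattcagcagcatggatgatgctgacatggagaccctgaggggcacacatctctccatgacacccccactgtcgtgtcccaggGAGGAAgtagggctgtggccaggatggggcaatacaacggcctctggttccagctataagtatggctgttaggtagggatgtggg
Prtn3, chr10:79879417-79879666, plus strand: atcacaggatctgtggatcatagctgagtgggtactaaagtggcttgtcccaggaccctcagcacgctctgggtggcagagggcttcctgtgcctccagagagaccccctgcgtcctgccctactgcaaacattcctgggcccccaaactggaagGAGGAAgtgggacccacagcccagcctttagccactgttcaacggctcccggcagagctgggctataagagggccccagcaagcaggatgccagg
Ctsg, chr14:56102575-56102824, minus strand: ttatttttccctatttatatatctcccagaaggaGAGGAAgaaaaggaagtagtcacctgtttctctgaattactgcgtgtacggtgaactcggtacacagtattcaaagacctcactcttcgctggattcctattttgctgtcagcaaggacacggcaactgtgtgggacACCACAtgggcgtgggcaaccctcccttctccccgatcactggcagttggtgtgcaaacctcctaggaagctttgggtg
Ermap, chr4:119189996-119190245, minus strand: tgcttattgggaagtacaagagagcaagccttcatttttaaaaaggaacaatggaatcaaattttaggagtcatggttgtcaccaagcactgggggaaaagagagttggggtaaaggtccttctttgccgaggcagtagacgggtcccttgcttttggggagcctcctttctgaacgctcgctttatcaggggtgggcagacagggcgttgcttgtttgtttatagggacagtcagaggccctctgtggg
Klf1, chr8:84901732-84901981, plus strand: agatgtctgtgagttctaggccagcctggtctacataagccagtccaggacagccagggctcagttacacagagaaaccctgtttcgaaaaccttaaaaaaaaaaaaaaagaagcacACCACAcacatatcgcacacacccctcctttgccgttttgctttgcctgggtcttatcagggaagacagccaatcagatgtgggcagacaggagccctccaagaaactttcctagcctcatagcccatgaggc

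GAGGAA occurs in the 4 granule gene promoters, with 2 matches in Mpo and 1 in each of the others, and in neither Ermap nor Klf1. It occurs in 23.1% of 27025 RefSeq promoters of the same length. TGTGGT, found in 14.2% of them, occurs in Ctsg and Klf1, both times on the opposite strand. TTGCNNAA (9.55%) and AGATAA (10.3%) occur in none of the 6 windows. Other forms of these sites were not searched. TGATAA, which differs from AGATAA in its first base, can be read on the opposite strand (TTATCA) in the Ermap and Klf1 windows. It is not marked there, and its share over all promoters was not counted. Of the 25 granulocyte-monocyte genes described next, 18 had a promoter in the RefSeq table and 10 of these held GAGGAA, as did 9 of the 20 promoters found for 28 megakaryocyte-erythroid genes. These matches describe letters and not binding.

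Of 25 granulocyte-monocyte genes, 24 were higher in ST with tamoxifen and 0 lower, with a median difference of 2.24. Over all genes 12.5% were higher and the median was 0.00. With oil 19 were higher and 1 lower, with a median of 1.71. F13a1, coagulation factor XIII A of monocytic cells, measured 1.04, 0.713 and 0.752 in LT and 90.2, 81.3 and 86.4 in ST with tamoxifen (5.57, SE 0.51, adjusted p = 2.42e-06). Ms4a3, a membrane protein of granulocyte-monocyte progenitors, measured 0.446, 0.428 and 0.150 in LT and 33.6, 38.7 and 50.2 in ST (4.95, SE 0.38, adjusted p = 1.03e-09). Ly6c2, a surface antigen of monocytes with a close copy in Ly6c1 that could share its reads, measured 0.446, 0.713 and 0.451 in LT and 49.3, 72.7 and 61.8 in ST (5.33, SE 0.26, adjusted p = 7.55e-14). Over the 3 LT libraries F13a1 had 7 reads, Ms4a3 2 and Ly6c2 4, and no ST library came near those levels. Genes named for the largest change, F13a1 among them, have groups without overlap by the rule.

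Further members of the list differed less. Anxa3, a granulocyte annexin, measured 1.64, 0.999 and 2.56 in LT and 17.1, 32.7 and 37.9 in ST (3.44, SE 0.35, adjusted p = 1.18e-07). Gfi1, a repressor needed for neutrophils, measured 4.61, 8.42 and 2.56 in LT and 29.1, 22.1 and 19.6 in ST (2.09, SE 0.27, adjusted p = 4.06e-06), and its oil difference of 0.70 missed the threshold (adjusted p = 0.0535). Csf3r, the receptor of granulocyte colony-stimulating factor, measured 57.0, 103 and 61.5 in LT and 139.9, 209.8 and 171 in ST (1.26, SE 0.21, adjusted p = 0.000219). Lineage transcription factors chosen after their values were seen also passed, with differences of 2.24 for Cebpa, 2.05 for Irf8, 1.37 for Sfpi1 (PU.1) and 1.77 for Cebpe. Csf2rb2, the 1 member that did not pass, differed by -0.25 and has a close copy in Csf2rb. Outside the list, the naming rule took the myeloid receptor genes Clec12a (4.87) and Igsf6 (4.08), the chemokine gene Ccl9 (3.35) and the GTPase gene Rab44 (4.16). These 4 genes also passed with oil.

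Set beside oil, the population difference was larger with tamoxifen in 21 of the 25 genes, with an unadjusted p under 0.05 for 11, but that change passed over all genes in 0. It was above 0 in 53.3% of all genes and in 70.0% of those called higher with tamoxifen. An unadjusted p under 0.05 was seen in 12.9% of all genes. The list's median change of 0.93 became 0.69 without LT tamoxifen library A. Within the list Mpo had the smallest p. It measured 97.2, 99.5 and 82.3 in LT and 946, 1185 and 1166 in ST with oil, so that its LT libraries were lowest and its ST libraries highest with tamoxifen (difference of the differences 3.19, SE 0.58, adjusted p = 0.0697). Summed over the list, LT libraries ran from 665 to 723 with oil and from 410 to 625 with tamoxifen. ST libraries ran from 2410 to 2870 and from 4130 to 4610.

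Part of the markers of mature neutrophils, macrophages and monocytes were higher in ST as well, while mast cell and basophil markers went both ways. Of 15 markers of mature neutrophils 10 were higher in ST and 0 lower, and their summed level was 77.5 to 118 in LT and 237 to 403 in ST tamoxifen libraries. S100a8, S100a9, Ngp and Camp were among those that passed, while the late granule genes Ltf, Lcn2, Mmp8, Mmp9 and Retnlg did not. Of 13 macrophage and monocyte markers 7 were higher and 0 lower (sums of 169 to 304 and 604 to 717), and 4 without LT tamoxifen library A. Of 10 mast cell and basophil markers 5 were higher and 2 lower, and their summed level was lower in ST (912 to 1020 in LT and 803 to 821 in ST). Hdc, the histamine-forming enzyme and 1 of the 5 higher, measured 0.744, 0.143 and 1.35 in LT and 16.3, 19 and 20.4 in ST (3.54, SE 0.33, adjusted p = 2.74e-08), apart in every library. These lists count 15 of 16, 13 of 16 and 10 of 14 markers. Every gene of the table has a value of 1 or more in at least 6 libraries, so markers at 0 throughout could not be counted. The part of such cells in the granulocyte result was not tested.

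**Figure D2:**
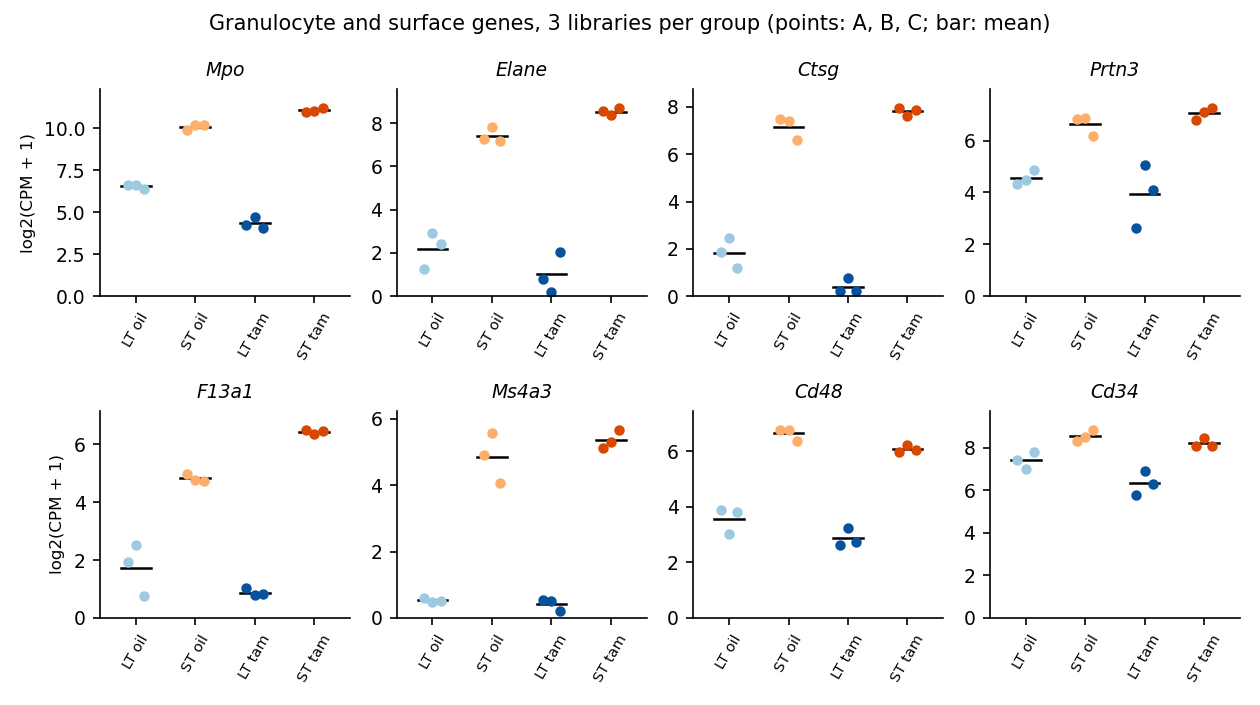
Levels of Mpo, Elane, Ctsg, Prtn3, F13a1, Ms4a3, Cd48 and Cd34 on log2(normalised CPM + 1) in the 3 libraries (points, A to C) of each LT and ST group with oil and with tamoxifen, with the group mean as a bar. In each panel the 3 ST tamoxifen libraries lie above the 3 LT tamoxifen libraries, and Mpo is lowest in LT tamoxifen.

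On the other side, the genes with the largest excess in LT cells included many of the red cell programme. Ank1 (ENSMUSG00000031543), the ankyrin of the red cell membrane, measured 155, 107 and 96.4 in LT and 24.6, 13.3 and 13 in ST with tamoxifen (-2.78, SE 0.35, adjusted p = 5.45e-06). Ermap, an erythroid membrane protein, measured 503, 300.3 and 289 in LT and 80.4, 52.7 and 58.9 in ST (-2.46, SE 0.34, adjusted p = 0.000126). Klf1, an erythroid transcription factor chosen after its values were seen, measured 63.8, 42.9 and 47.7 in LT and 19, 9.29 and 15.3 in ST (-1.79, SE 0.39, adjusted p = 0.00159). No library overlapped between the groups, which the naming rule requires of Ank1 and Ermap, and LT library A was highest each time. Ank1 and Ermap passed in every alternative fit. With oil the differences of the 3 genes were -3.72, -3.88 and -2.73.

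Spnb1, the beta spectrin of the red cell, measured 83.7, 46.4 and 39.5 in LT and 4.65, 6.14 and 11.7 in ST (-2.77, SE 0.59, adjusted p = 0.00349). Rhag, a glycoprotein of the Rh complex, measured 146, 79.5 and 63.3 in LT and 24.6, 15.6 and 25.6 in ST (-2.03, SE 0.55, adjusted p = 0.0146). Rhag lost its call without LT tamoxifen library A (adjusted p = 0.0686) or ST tamoxifen library B (0.0553), and Spnb1 without both tamoxifen libraries A (0.0677). Pklr, the pyruvate kinase of red cells and liver, had means of 58.8 in LT and 10.4 in ST (-2.35). Atp7b, a copper transporter, measured 72.4, 50.4 and 41.9 in LT and 7.31, 7.29 and 5.52 in ST (-2.83, SE 0.29, adjusted p = 1.37e-07), the largest difference among genes named by the rule on this side. Nfia, a transcription factor known to favour the erythroid over the granulocyte fate, measured 389.5, 179 and 180.0 in LT and 70.3, 53.3 and 47.1 in ST (-2.03, SE 0.26, adjusted p = 2.62e-05). Both were apart in every library, as the naming rule requires of Atp7b. The rule also took Paqr9 (-2.81), Atp1b2 (-2.71), Tmem56 (-2.52), Ces2g (-2.41), Reps2 (-2.37), Hif3a (-2.27) and Pkhd1l1 (-2.26), which passed with oil too. All 15 genes named for the largest LT excess had their highest LT tamoxifen level in library A, as did 65.2% of the genes lower in ST and 39.2% of all genes.

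Of 28 megakaryocyte-erythroid genes 13 were lower in ST and 3 higher with tamoxifen (median -0.65), and 14 and 2 with oil (median -0.86), with 12 lower in both. Vwf, von Willebrand factor, which marks platelet-biased stem cells, measured 162, 149.9 and 191 in LT and 82.8, 64.7 and 84.9 in ST (-1.11, SE 0.16, adjusted p = 2.05e-05). Zfpm1, the GATA1 cofactor FOG1, measured 74.5, 126 and 122 in LT and 40.3, 39.9 and 48.9 in ST (-1.27, SE 0.20, adjusted p = 4.58e-05). Both had their 3 LT libraries above their 3 ST libraries. Gata1 (-1.41), Epor, the erythropoietin receptor (-1.26), and Tfrc, the transferrin receptor (-0.90), were lower as well. Higher in ST were the platelet genes Gp9 (1.39) and Itga2b (0.90) and the mucin gene Muc13 (0.70). Without LT tamoxifen library A, 12 members were lower and 0 higher.

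Erythroblast markers moved the same way, with 8 of 15 lower in ST and 0 higher (median -0.69), but 3 without LT tamoxifen library A. Their summed level was 320 to 511 in LT and 145 to 184 in ST tamoxifen libraries. The globin genes, which dominate late erythroblasts, were low in both populations, with means of 3.01 in LT and 2.05 in ST for Hba-a1 and 5.30 in LT and 7.77 in ST for Hbb-b1, and Alas2, of haem synthesis, had 4.74 in LT and 3.82 in ST. None of these 3 passed. The part of erythroblasts in the red cell result was not tested further.

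**Figure D3:**
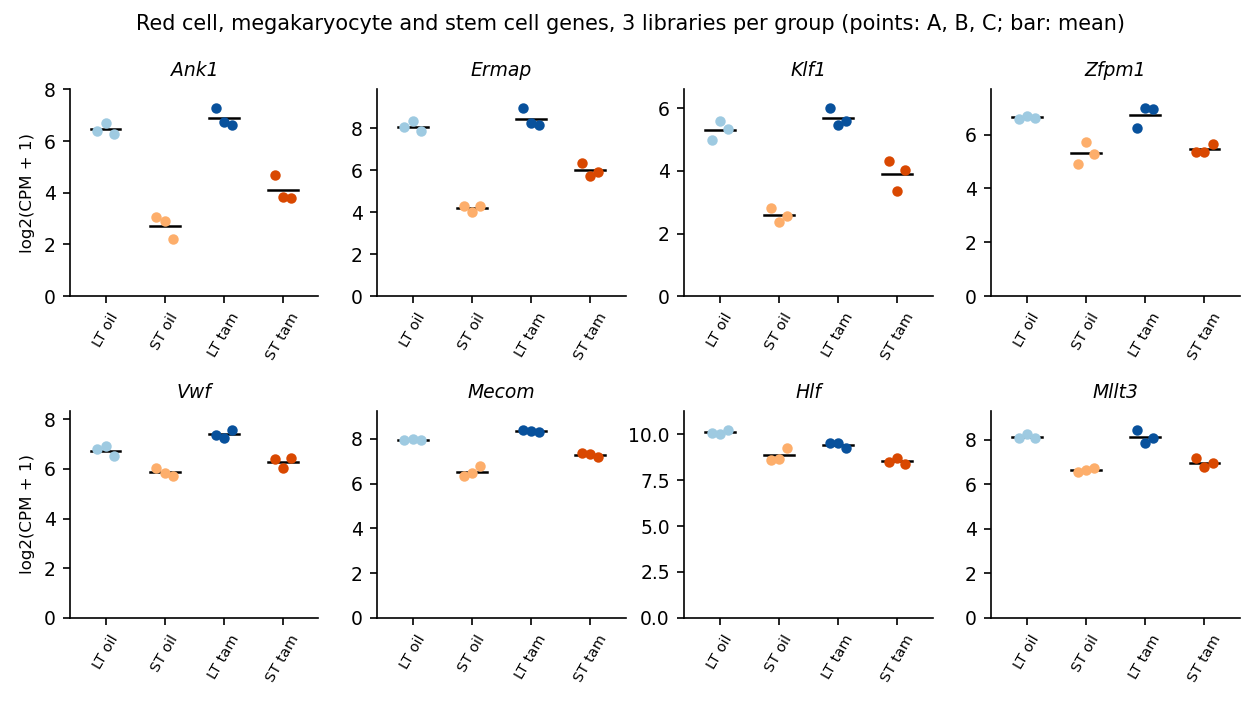
Levels of Ank1, Ermap, Klf1, Zfpm1, Vwf, Mecom, Hlf and Mllt3 on log2(normalised CPM + 1) in the 3 libraries (points, A to C) of each LT and ST group with oil and with tamoxifen, with the group mean as a bar. In each panel the 3 LT tamoxifen libraries lie above the 3 ST tamoxifen libraries, and the ST means of Ank1, Ermap and Klf1 are 5.84, 17.4 and 5.02 with oil and 16.9, 64.0 and 14.5 with tamoxifen.

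Genes known from long-term stem cells were largely on the LT side under tamoxifen. Of 38 measured, 15 were lower in ST and 1, Vldlr, higher (median -0.66), against 23 and 1 with oil (median -1.0), and 15 were lower in both. Without LT tamoxifen library A, 16 were lower and 0 higher. Mecom (ENSMUSG00000027684), which encodes EVI1, needed for long-term stem cells, measured 342, 324 and 319.5 in LT and 164, 158 and 143 in ST with tamoxifen (-1.08, SE 0.17, adjusted p = 6.93e-05). Mllt3, a regulator of stem cell maintenance, measured 351, 229 and 273 in LT and 145, 109 and 124 in ST (-1.16, SE 0.15, adjusted p = 3.17e-06). Clec1a, a C-type lectin receptor, measured 36.1, 23.3 and 24.2 in LT and 8.10, 6.71 and 6.29 in ST (-1.82, SE 0.32, adjusted p = 0.00017). LT and ST libraries did not overlap in these genes. Others that passed were Fgd5 (-1.37), Neo1 (-1.48), Robo4 (-0.95) and Tie1 (-0.75), chosen after their values were seen.

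Of 27 stem cell transcription factors 11 were lower in ST and 2, Gfi1 and Lyl1, higher. Hlf, a stem cell transcription factor chosen after its values were seen, measured 741, 735 and 616 in LT and 363, 412 and 332 in ST (-0.92, SE 0.18, adjusted p = 0.000856). Prdm16, needed for stem cell maintenance, measured 79.6, 73.5 and 57.3 in LT and 25.6, 28.1 and 32.0 in ST (-1.26, SE 0.18, adjusted p = 9.86e-06). Runx1, a master regulator of blood formation, measured 267, 199 and 227 in LT and 129, 132 and 134 in ST (-0.80, SE 0.13, adjusted p = 7.57e-05). The LT libraries lay above the ST libraries in all 3. Gata2, Fli1, Bmi1, Erg, Lmo2 and Myb did not pass with tamoxifen. The first 3 of these passed with oil, and their change between treatments did not pass. Of 13 Hoxa and Hoxb genes Hoxa3 (-0.82) and Hoxa6 (-0.80) were lower, and both lost the call when the 6 libraries were fitted alone (adjusted p = 0.101 and 0.11) or without LT tamoxifen library B or C or ST tamoxifen library B.

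Among receptors and imprinted growth genes there were calls on the LT side too. Of 37 cytokine and growth factor receptors 11 were lower in ST and 5 higher (median -0.18), against 11.1% lower and 12.5% higher over all genes. With the 6 libraries fitted alone, 7 were lower and 2 higher. Tgfbr3, the TGF-beta co-receptor betaglycan, measured 152, 127 and 154 in LT and 55.4, 53.3 and 69.7 in ST (-1.27, SE 0.19, adjusted p = 2.77e-05). Eng, the co-receptor endoglin, measured 134, 189.9 and 175 in LT and 73.5, 97.6 and 79.2 in ST (-0.98, SE 0.16, adjusted p = 5.79e-05). Insr, the insulin receptor, measured 137, 131 and 135 in LT and 90.5, 76.1 and 79.2 in ST (-0.71, SE 0.12, adjusted p = 0.000143). Each had all LT libraries above all ST libraries. Of 24 JAK-STAT genes 5 were lower and 1 higher, and with the 6 libraries fitted alone 2 and 0. Those lower included the feedback inhibitor Socs2 (-1.17) and the transducers Stat5a (-0.58) and Stat5b (-0.54). Stat5b lost its call without ST tamoxifen library A (adjusted p = 0.114). The phosphatase gene Ptpn6 was higher (0.61), but differed by 0.31 without LT tamoxifen library A (adjusted p = 0.155) and also lost its call without ST tamoxifen library B or C.

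Of 17 imprinted genes 6 were lower in ST and 0 higher, and 6 were lower with both treatments. Meg3, a long noncoding RNA, measured 12.6, 8.70 and 16.1 in LT and 4.65, 1.00 and 1.16 in ST (-2.18, SE 0.47, adjusted p = 0.00138). Igf2r, which clears insulin-like growth factor 2, measured 101, 69.8 and 63.6 in LT and 30.2, 23.3 and 19.1 in ST (-1.65, SE 0.23, adjusted p = 1.92e-05). Their groups did not overlap. Cdkn1c, an imprinted cell cycle inhibitor chosen after its values were seen, had means of 16.8 in LT and 6.58 in ST with oil (-1.28, SE 0.30, adjusted p = 0.0021) and of 10.1 in LT and 12.4 in ST with tamoxifen (0.27, SE 0.30, adjusted p = 0.561). The change in this difference did not pass (adjusted p = 0.12).

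Genes of cell division were higher in ST cells. Of 40 mitosis genes 32 were higher and 0 lower with tamoxifen (median 0.96), and 33 and 0 with oil (median 0.93), with 29 higher in both. Ndc80, of the kinetochore, measured 28.4, 24.4 and 21.5 in LT and 83.3, 81.3 and 83.8 in ST (1.71, SE 0.16, adjusted p = 2.22e-08). Kif23, a motor of cytokinesis, measured 33.5, 31.5 and 25.7 in LT and 100, 85.9 and 94.9 in ST (1.60, SE 0.16, adjusted p = 9.43e-08). Pbk, a mitotic kinase, measured 28.4, 39.5 and 29.9 in LT and 100, 102 and 121 in ST (1.70, SE 0.18, adjusted p = 2.15e-07). Every ST library exceeded every LT library. Mki67, the proliferation antigen, did not pass, with means of 1370 in LT and 1584 in ST (0.35). Without LT tamoxifen library A, 37 of the 40 were higher.

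Of 38 DNA replication genes 22 were higher and 0 lower (median 0.52), against 16 and 0 with oil (median 0.37). With the 6 tamoxifen libraries fitted alone 14 were higher. Rfc4, of the clamp loader, measured 25.1, 20.1 and 21.5 in LT and 53.8, 47.3 and 61.2 in ST (1.24, SE 0.21, adjusted p = 8.9e-05). Cdc45, of the replicative helicase, measured 17.7, 18.1 and 23 in LT and 46.9, 40.1 and 50.7 in ST (1.19, SE 0.18, adjusted p = 3.59e-05). Neither gene overlapped between the groups. Mcm2, Mcm4 and Mcm6 did not pass. Genes of cell cycle entry and restraint were mixed, with 5 of 31 higher and 5 lower. The kinase gene Cdk4 (0.65) and the inhibitor genes Cdkn2d (1.49), Cdkn1a (1.08) and Cdkn2c (0.95) were higher, as was Rbl1. The quiescence factor genes Foxo1 (-1.08) and Foxo3 (-0.52) were lower, as were Mycn, Ccnd2 and Rb1. Without LT tamoxifen library A 2 and 5 of the list were higher and lower. When the 6 libraries were fitted alone, 0 of these were higher and 4 lower.

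Of 42 nuclear genes of oxidative phosphorylation 19 were higher in ST and 0 lower with tamoxifen (median 0.52), against 26 and 0 with oil (median 0.60). Ndufa4, a small subunit of the respiratory chain, measured 41.5, 49.8 and 64.2 in LT and 138, 128 and 123 in ST (1.33, SE 0.17, adjusted p = 2.81e-06), without overlap. Without LT tamoxifen library A 13 were higher, without both tamoxifen libraries A 9, and with the 6 libraries fitted alone 9. Of the 13 mitochondrially encoded genes 0 passed, but 1 higher and 1 lower passed by limma after quantile normalisation and 3 lower by DESeq2, and mt-Nd4l was lower by limma without LT tamoxifen library B (adjusted p = 0.0338). Their median of -0.63 became -0.06 without LT tamoxifen library A. Their summed level was 15100 to 45800 in LT, with library A highest, and 15200 to 17800 in ST.

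Glycolysis had 10 of 25 genes higher and 2 lower in ST with tamoxifen (median 0.13), and 4 and 5 with oil (median -0.25). With the 6 libraries fitted alone 7 were higher and 2 lower. The median change between treatments was 0.39, and 0.18 without LT tamoxifen library A. That change passed over all genes in 1 member, Eno1. Its unadjusted p was under 0.05 in 5 members, against 12.9% of all genes. Pgam1, phosphoglycerate mutase, measured 59.3, 97.2 and 94.3 in LT and 263, 269.6 and 255 in ST (1.67, SE 0.16, adjusted p = 2.61e-08). Pkm2, pyruvate kinase M, measured 96.8, 186 and 145 in LT and 289.7, 300.1 and 315 in ST (1.12, SE 0.16, adjusted p = 1.17e-05). The ST libraries of both lay above the LT libraries, and such enzymes have processed copies that could share reads. The glucose and lactate transporter genes Slc2a3 (-0.75) and Slc16a1 (-0.73) were lower.

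The unfolded protein response had 13 of 23 genes higher in ST and 2 lower with tamoxifen (median 0.64), where with oil 4 were higher and 4 lower (median 0.04). Calr, the chaperone calreticulin, measured 201, 216 and 237 in LT and 419, 404 and 401 in ST with tamoxifen (0.91, SE 0.13, adjusted p = 1.52e-05) and 235, 241 and 233 in LT and 229, 281 and 280.4 in ST with oil (adjusted p = 0.419). P4hb, a protein disulfide isomerase, measured 136, 181 and 183 in LT and 283, 308 and 278 in ST with tamoxifen (0.81, SE 0.14, adjusted p = 0.000116) and 172, 161 and 150.3 in LT and 141, 173 and 185 in ST with oil (adjusted p = 0.857). The ST tamoxifen libraries lay above the LT tamoxifen libraries in both genes. The change in the population difference had an unadjusted p under 0.05 in 11 of the 23, against 12.9% of all genes. It passed over all genes in 0, with adjusted p = 0.0864 for Calr and 0.0986 for P4hb. Asns, asparagine synthetase, went the other way, at 75.4, 49.2 and 51.9 in LT and 20.6, 22.1 and 23 in ST (-1.36, SE 0.20, adjusted p = 2.41e-05).

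Lymphoid genes were mixed. Of 22 lymphoid-primed genes 8 were higher in ST and 3 lower, or 5 and 3 with the 6 libraries fitted alone. Tcf7, a T lineage transcription factor, measured 18.9, 8.42 and 5.86 in LT and 1.73, 1.57 and 2.70 in ST (-1.88, SE 0.37, adjusted p = 0.000562). Every LT library of Tcf7 lay above every ST library. Ighm, the immunoglobulin mu chain, chosen after its values were seen, measured 135, 24.4 and 44.7 in LT and 394, 195 and 326 in ST (2.44, SE 0.56, adjusted p = 0.00715) and had means of 129 in LT and 96.1 in ST with oil. Of 9 B cell markers 1 was higher and 1 lower (sums of 53.4 to 93.2 in LT and 38.9 to 61.0 in ST). Of 10 T and NK cell markers Nkg7 and Gzmb were higher by limma (sums of 38.2 to 49.6 and 111 to 163), and Nkg7 is also expressed in myeloid progenitors. Gzmb, with 6 reads in LT and 39 in ST, did not pass by edgeR (adjusted p = 0.0693), without LT tamoxifen library B or C or without ST tamoxifen library A (0.176). Their part in these differences was not tested.

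The remaining lists, here and in the next paragraph, were mixed or held few calls. Over all genes 12.5% were higher and 11.1% lower. Some lists lay near or below those shares, such as interferon genes (8.6% each way) and p53 targets (12.5% each way). Interferon response genes had 3 of 35 higher, led by the immunoproteasome genes Psmb9 (1.67) and Psmb8 (1.11), and 3 lower, led by Iigp1 (-0.85). Of 17 MHC genes 5 were higher and 4 lower, and members of this family can share reads. Adhesion and niche receptors had 6 of 27 higher and 7 lower, with Itgal at 1.22 and Itga5 at -1.14. Retinoid genes had 2 of 13 higher and 4 lower, with Aldh1a7 at -1.79. Estrogen receptors and targets had 2 of 13 higher and 5 lower, with Igfbp4 at 1.26 and Tgm2 at -1.23. Of 24 p53 targets 3 were higher and 3 lower, led by Zmat3 (-1.71).

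Among 16 BCL2 family genes the pro-apoptotic Bcl2l11 alone was lower (-0.86). Cholesterol synthesis had 1 of 24 higher and 3 lower, and ribosome biogenesis 7 of 33 higher and 2 lower. Of 20 immediate early genes Jun, Fosb and Fosl2 were higher and Klf6 lower, and 0 were higher without LT tamoxifen library A. Of 11 nuclear long noncoding RNAs 4 were higher, among them Snhg1 and Snhg5, and 2 lower, Meg3 and Malat1, of which Malat1 lost its call after quantile normalisation. Of 10 stromal and endothelial markers 2 were higher and 1 lower, and of 14 megakaryocyte and platelet markers 3 and 3. Without LT tamoxifen library A the members higher and lower in ST were 1 and 2 for retinoid genes, 1 and 3 for estrogen genes, 0 and 3 for p53 targets, 3 and 3 for MHC genes, 4 and 2 for interferon genes and 0 and 1 for megakaryocyte markers. With the 6 libraries fitted alone they were 0 and 1 for MHC genes, 4 and 3 for adhesion receptors, 1 and 2 for interferon genes, 1 and 2 for retinoid genes, 1 and 2 for estrogen genes, 0 and 2 for p53 targets, 3 and 0 for ribosome biogenesis and 1 and 1 for megakaryocyte markers.

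**Figure D4:**
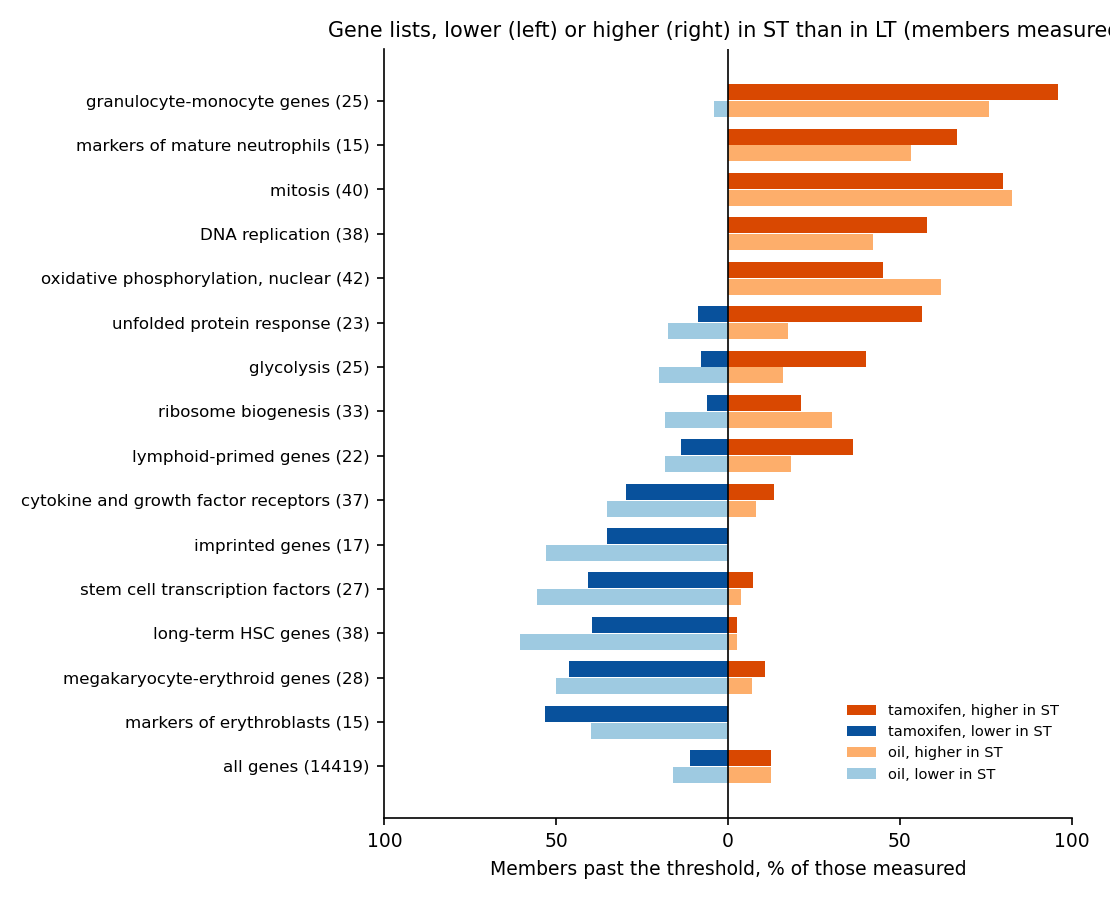
Percent of the measured members of 15 gene lists, and of all genes, past the threshold higher (right) or lower (left) in ST than in LT cells, with tamoxifen (dark bars) and with oil (light bars). Granulocyte-monocyte and mitosis genes reach 24 of 25 and 32 of 40 on the right with tamoxifen, and long-term stem cell genes 15 of 38 on the left.

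The population difference itself differed between treatments for 8 genes, with a larger ST minus LT value under tamoxifen in 6 and a smaller one in 2. After quantile normalisation 7 passed, with a larger value in 2 and a smaller one in 5. Atp8b4 (ENSMUSG00000060131), a phospholipid flippase, was higher in ST with both treatments. It measured 22.2, 20.6 and 28.8 in LT and 156, 121 and 118 in ST with oil and 5.80, 5.85 and 5.56 in LT and 159.5, 185 and 194 in ST with tamoxifen. The population difference was 2.42 with oil and 4.74 with tamoxifen (change 2.32, SE 0.34, adjusted p = 0.0212). The LT tamoxifen libraries of Atp8b4 lay below all other libraries of the 4 groups. BC035044 had a like pattern, with 18.2, 11.7 and 14.6 in LT and 80.8, 67.1 and 81.6 in ST with oil and 3.42, 6.42 and 3.76 in LT and 75.1, 93.0 and 66.6 in ST with tamoxifen (change 1.56, SE 0.31, adjusted p = 0.0452).

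Cs (ENSMUSG00000005683), citrate synthase of the citric acid cycle, measured 231, 207 and 214 in LT and 103, 117 and 128 in ST with oil and 209, 246 and 232 in LT and 224, 211 and 228 in ST with tamoxifen. The population difference was -0.91 with oil, where the groups were apart, and -0.05 with tamoxifen, where they overlapped (change 0.86, SE 0.16, adjusted p = 0.0389). Gstm1, a glutathione transferase listed among the stem cell genes, measured 128, 115 and 122 in LT and 49.2, 67.4 and 92.2 in ST with oil and 60.5, 72.9 and 78.3 in LT and 85.4, 101 and 92.3 in ST with tamoxifen (change 1.24, SE 0.24, adjusted p = 0.0389). Its ST libraries lay below the LT libraries with oil and above them with tamoxifen. Eno1, the glycolytic enolase, measured 193, 189 and 188 in LT and 145, 169 and 181 in ST with oil and 132, 209.9 and 182 in LT and 316, 282 and 295 in ST with tamoxifen (change 1.00, SE 0.19, adjusted p = 0.0389). Mtus1, a microtubule-associated protein, had means of 10.1 in LT and 10.6 in ST with oil and 5.75 in LT and 29.1 in ST with tamoxifen (change 2.02, SE 0.38, adjusted p = 0.0389). In Eno1 and Mtus1 the ST tamoxifen libraries stood above all others.

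The provisional genes Gm10060 (ENSMUSG00000091171) and Gm14391 changed in the other sense. Gm10060 had means of 118 in LT and 199 in ST with oil and 155 in LT and 103 in ST with tamoxifen (change -1.27, SE 0.23, adjusted p = 0.0389). Gm14391 had means of 79.8 in LT and 136 in ST with oil and 91.4 in LT and 74.5 in ST with tamoxifen (change -1.04, SE 0.21, adjusted p = 0.0452). Atp8b4, Cs, Gstm1 and Eno1 were taken by the naming rule, and the other 4 were chosen after their values were seen. Flrt1, a membrane adhesion protein, had a larger change that did not pass. It measured 3.44, 4.17 and 5.15 in LT and 8.06, 3.81 and 3.08 in ST with oil and 55.2, 46.1 and 39.2 in LT and 4.12, 10.4 and 7.83 in ST with tamoxifen (change -2.67, SE 0.77, adjusted p = 0.165). The count of 8 depended on the fit, with 0 genes past the threshold by edgeR (1778 with an unadjusted p under 0.05) and 157 by DESeq2, and 122 without LT tamoxifen library A. All 8 passed by DESeq2, with library weights and with the replicate letter as a block. Of these 8 genes, 0 passed by edgeR or without trend and robust settings, and 1 with equal library medians. Leaving out LT oil library A or C or ST oil library B also left 0 of them. So did leaving out LT tamoxifen library C or ST tamoxifen library B or C.

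**Figure D5:**
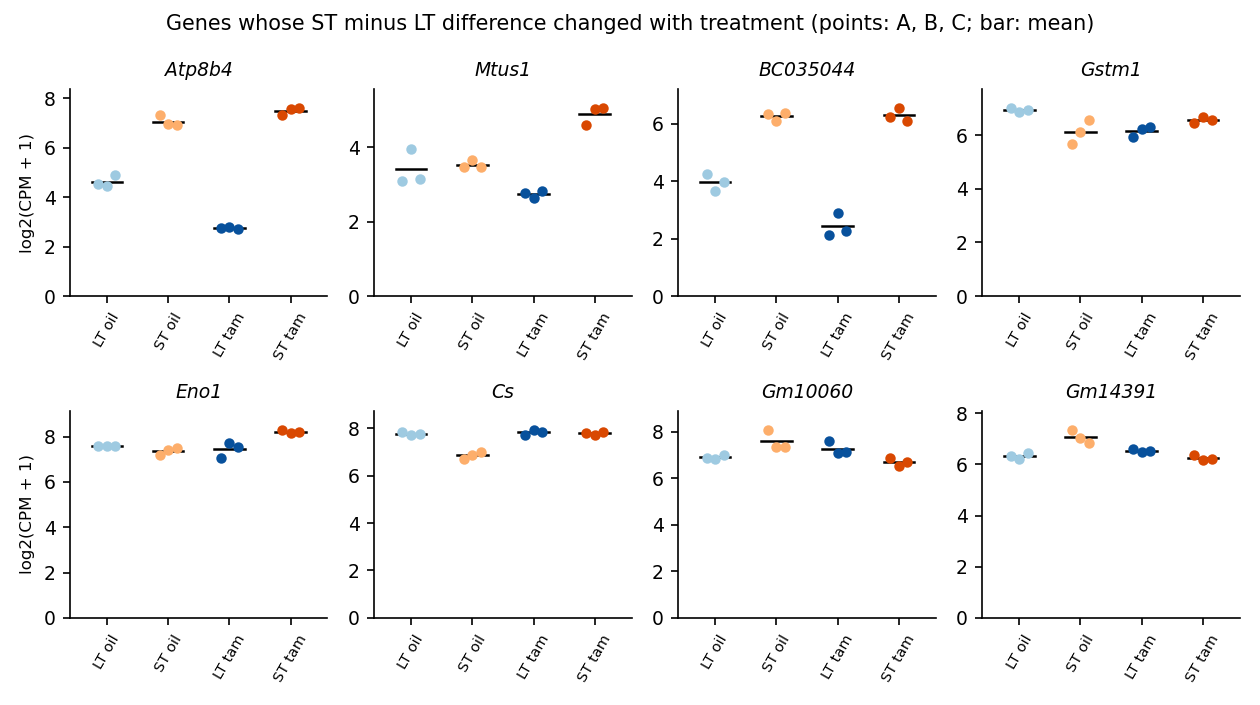
Levels of the 8 genes whose ST minus LT difference differed between treatments, on log2(normalised CPM + 1), in the 3 libraries (points, A to C) of each LT and ST group with oil and with tamoxifen, with the group mean as a bar. Atp8b4 and BC035044 are lowest in LT tamoxifen, Cs is lowest in ST oil, and the ST means of Gm10060 and Gm14391 are above the LT means with oil and below them with tamoxifen.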

How the data were processed

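RNA of freshly isolated cells was amplified and sequenced in 18 libraries of 6 groups, per the labels' protocols. The submitters' processing notes name cutadapt, Picard, RSEM 1.17, limma and the mouse build NCBIM37. The deposited values are a normalised signal per gene (normalised CPM), from which whole reads were recovered: each value is the reads plus 0.5 times a constant per library, and 100% of values came out whole within 0.001 read. The scaling method of the authors, the annotation and the strand setting: not given in the sources used here. Reads of overlapping genes and close copies therefore cannot be told apart. The main test was limma 3.58.1 in R 4.3.3 on log2(value + 1), with 1 mean per group over all 18 libraries, trend and robust settings and 12 residual degrees of freedom. Requiring 3 libraries at or above 1 took out 0 genes. The text names the 15 genes with the largest change each way among those past the threshold, above the median gene's mean of 20.3, without overlap and with a unique, non-provisional symbol; up to 8 each way for the change between treatments; 6 each way passing with both treatments; up to 4 per list from 36 lists; and fixed surface genes. For 2 genes taken by this rule, values are not reported here. Members and lists were chosen with earlier results of these data known. Alternatives included edgeR 4.0.16 and DESeq2 1.42.0 on the recovered reads, other scalings, pseudocounts and filters, and leaving out libraries. The scripts were tested on simulated data. If the replicates of a group were not separate mice, p-values measure only the spread between these samples.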

Additional observations from a re-analysis of the deposited data

Results flagged for a closer look

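In 8 genes the ST minus LT difference differed between tamoxifen and oil past the limma threshold over all genes, by the test of that difference itself. On the log2 scale the change (tamoxifen minus oil) was 2.32 for Atp8b4, 2.02 for Mtus1, 1.56 for BC035044, 1.24 for Gstm1, 1.00 for Eno1 and 0.86 for Cs. It was -1.27 for Gm10060 and -1.04 for Gm14391. With 1860 of 14419 genes at an unadjusted p under 0.05, these 8 are those that passed the adjustment, and 0 of them passed by edgeR and 8 by DESeq2.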

How the results depend on the processing

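Of 154 named genes, 147 passed with tamoxifen. Fitting the compared libraries alone lost 23 calls, leaving out ST tamoxifen library C lost 16, LT tamoxifen library A 15, and both tamoxifen libraries A (chosen after seeing the data) 25, while edgeR lost 2 and DESeq2 lost 0 of the 153 genes it gave a value for. The count of 3391 genes became 1780 in the fit of the compared libraries alone and ranged from 2455 (without ST tamoxifen library C) to 3461 with 1 library left out, the oil count from 3158 to 4822 and the count called with both from 1683 to 2062. The 8 genes whose difference changed between treatments became 1 with equal library medians, 2 with the compared libraries alone, 0 without trend and robust settings (1830 with an unadjusted p under 0.05), 99 with library weights, 0 by edgeR (1778), 157 by DESeq2 and 192 without both tamoxifen libraries A, and ranged from 0 to 122 with 1 library left out. The cause was not tested. With libraries left out, the tamoxifen difference of Cs ranged from -0.123 to 0.005 (above 0 without LT library B). For Esr1, ST against LT with tamoxifen, it ranged from -0.851 to 0.008 (above 0 without ST library C). The labels do not say whether a replicate letter marks shared mice. Same-letter correlations of deviations were 0.137, 0.076 and 0.089 with tamoxifen and 0.053, 0.052 and 0.101 with oil over all genes. In genes above the median mean they were 0.159, 0.108 and 0.154 with tamoxifen and 0.075, 0.138 and 0.155 with oil. Over all genes every library correlated best with its own letter. Different letters of the same treatment gave -0.097 to 0.029. The samples were treated as not paired, since not every pair was over 0.1, a cut-off that does not show the pairs to be unrelated. With the letter as a replicate block 3905 genes passed with tamoxifen, 4558 with oil, 2443 with both and 125 for the change between treatments. The median 95% interval of a tamoxifen difference, before adjustment over genes, reached 0.517 to either side. Smaller differences were thus mostly not detectable, and some larger ones did not pass.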
